A study of Homo sapiens with 24 samples.

Results

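MYC, the 3 D-type cyclins CCND1, CCND2 and CCND3, their partner kinases CDK4 and CDK6, the kinase inhibitors CDKN1B, CDKN2A and CDKN2B, and the pocket protein RB1 are described here across 2 colorectal carcinoma lines exposed to isoginkgetin. The 10 genes were chosen by symbol, through probe sets that carry exactly 1 symbol. All 10 were among the 18636 genes with a mean over at least 3 exon probe sets, and they held 198 of 381375 exon probe sets and 109 of 285955 junction probe sets of such genes. Isoginkgetin, a biflavonoid made by plants, is known as a compound that blocks pre-mRNA splicing. HCT116 is a human colorectal carcinoma cell line, and HCT116p53-/-, called p53-null here, is 1 subline of it that lacks p53. Each line received 30 µM isoginkgetin for 8 h, an equal volume of its vehicle DMSO for 8 h, or nothing. Total RNA of 2 replicates in each of the 6 groups was measured on the Human Transcriptome Array 2.0 of Affymetrix, whose probe sets lie inside exons or span exon junctions. The 3 arrays that share a line and a number form a set, which gives 4 sets and 12 arrays. The level of a gene is its exon mean, the mean log2 value of its exon probe sets. A level depends on the probes as well as on the transcript, so levels are compared between arrays and not between genes.

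MYC is a transcription factor that pairs with MAX, binds E-boxes and drives genes of ribosome production, metabolism and cell growth. D-type cyclins activate CDK4 and CDK6, these kinases phosphorylate RB1, and phosphorylated RB1 releases the E2F factors that start DNA replication. CDKN2A and CDKN2B block CDK4 and CDK6, CDKN1B blocks mainly the cyclin E kinase, and in colorectal cancer WNT signalling through beta-catenin keeps MYC and CCND1 transcription high.

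The arrays labelled HCT116 replicate 1 stood apart before any treatment was considered. Of 17 colon epithelium markers measured, 9 had a mean level of 8 log2 or more in each of the other 3 sets (EPCAM, KRT8, KRT18, KRT19, CDH1, CLDN4, CLDN7, ESRP1 and ESRP2), against 0 in the set labelled HCT116 replicate 1. The summed level of these 17 markers was 77.6 log2 in that set, against 133.4 to 136.3 in the others. Of 11 fibroblast markers, 3 reached 8 log2 in that set (VIM, PDGFRA and POSTN) and 0 in the others, with a summed level of 74.9 log2 against 36.5 to 39.1. The defining collagens COL1A1 and COL1A2 stayed at 4.8 and 4.7 log2 there, and markers of blood cells, endothelium, neural cells and melanocytes reached 8 log2 in no set. The exon means of all genes were also higher in that set, with a median of 5.93 to 5.96 log2 by array against 5.11 to 5.32. The tests of the members are given with and without these 3 arrays, and the part of these markers in the results was not tested.

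**Figure D1:**
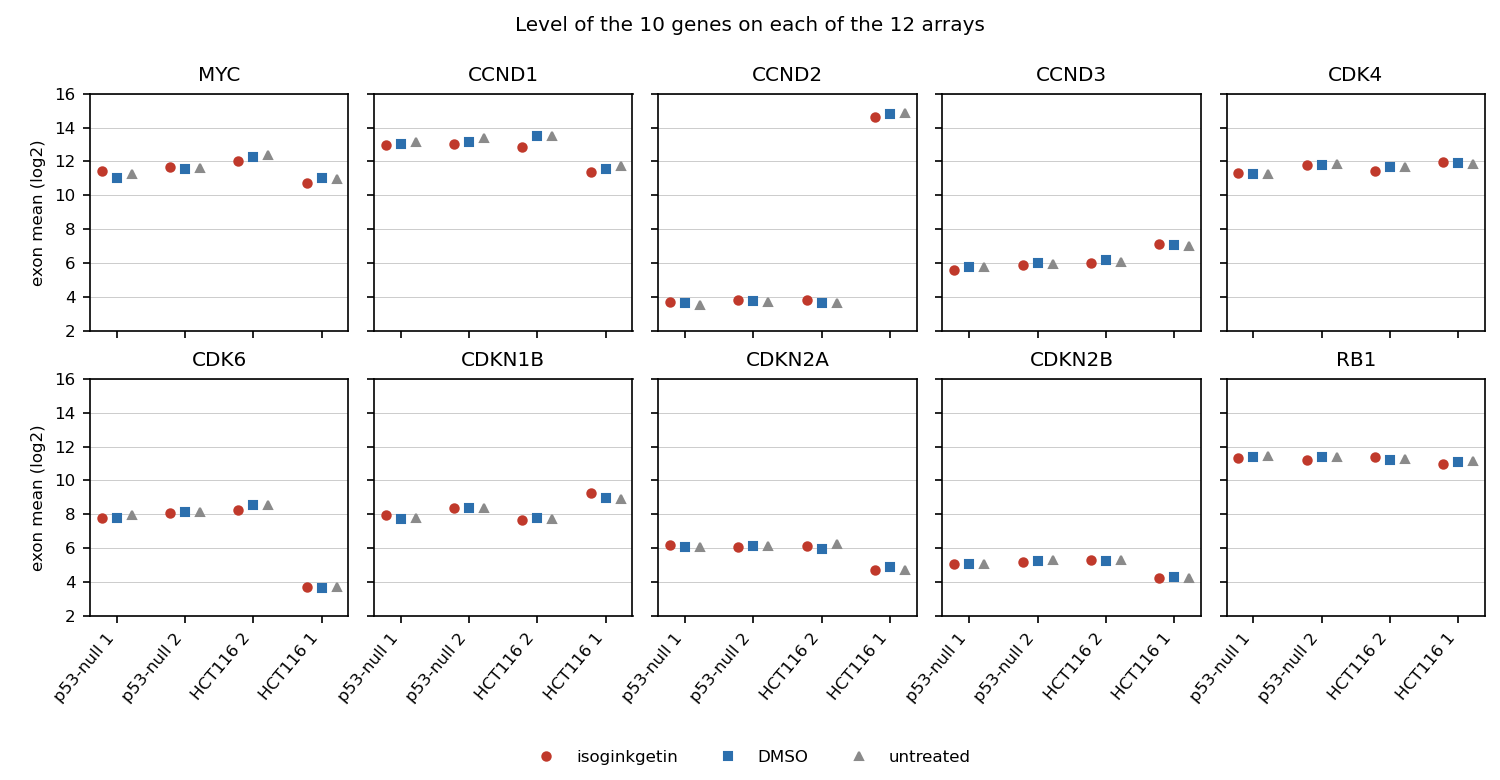
Exon means (log2, vertical axis) of the 10 genes on the 12 arrays, by set (horizontal axis) and treatment (red circles isoginkgetin, blue squares DMSO, grey triangles untreated); each point is 1 array. Treatments lie close together within a set, while CCND2 lies at 14.64 to 14.83 and CDK6 at 3.65 to 3.74 log2 on the arrays labelled HCT116 replicate 1, far from the other sets.

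MYC moved in opposite directions with isoginkgetin in the p53-null sets and the sets labelled HCT116, by small amounts that no test called. In p53-null cells MYC lay at 11.46 and 11.69 log2 with isoginkgetin, at 11.04 and 11.54 in DMSO, and at 11.24 and 11.62 untreated (replicates 1 and 2). On the HCT116 arrays it lay at 10.76 and 12.05 log2 with isoginkgetin, at 11.03 and 12.25 in DMSO, and at 10.97 and 12.36 untreated. Within a set the treated array was the highest of 3 in both p53-null sets and the lowest of 3 in both HCT116 sets, and across replicates the treatments overlapped in both lines. The difference between isoginkgetin and DMSO was 0.42 and 0.16 log2 in the p53-null sets and −0.27 and −0.20 in the HCT116 sets. DMSO minus untreated was −0.20 and −0.08 log2 in the p53-null sets, and isoginkgetin minus untreated was 0.22 and 0.08 there.

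Single probe sets of MYC showed how much of this rested on few of them. In p53-null replicate 1, 16 of its 18 exon probe sets were higher with isoginkgetin and 0 lower, and in replicate 2, 12 were higher and 4 lower. In HCT116 replicate 2, 15 were lower and 1 higher. In the set labelled HCT116 replicate 1, 11 were lower and 3 higher, but 1 probe set (PSR08010052) was at −3.58 log2, and without it the mean difference of that set was −0.07. The same probe set had the largest difference of the opposite sign in p53-null replicate 1, at 1.97 log2, and without it the mean there was 0.33. The median over the exon probe sets was 0.32, 0.18, −0.14 and −0.03 log2 in p53-null replicates 1 and 2, HCT116 replicate 2 and HCT116 replicate 1. The 7 junction probe sets averaged differences of 0.08 and 0.29 log2 in the p53-null sets and −0.07 in both HCT116 sets.

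The 3 genes whose pattern was most like that of MYC, after the mean of each set was taken off, were ANKS6, GOPC and USPL1, with Pearson r of 0.960, 0.957 and 0.950 over 12 arrays. These arrays share their sets and their treatments, so r is given as a description. ANKS6, for instance, had differences of 0.31 and 0.12 log2 in the p53-null sets and −0.15 and −0.10 in HCT116 replicates 2 and 1.

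CCND1, the D-type cyclin of most epithelia, was lower with isoginkgetin in all 4 sets. In p53-null cells it lay at 12.95 and 13.04 log2 with isoginkgetin, at 13.04 and 13.18 in DMSO, and at 13.15 and 13.37 untreated (replicates 1 and 2). On the HCT116 arrays it lay at 11.39 and 12.85 log2 with isoginkgetin, at 11.54 and 13.50 in DMSO, and at 11.71 and 13.50 untreated. The treated array was the lowest of each set, and the DMSO array lay below the untreated one in 3 sets and within 0.01 log2 of it in HCT116 replicate 2. Across replicates the treated and DMSO arrays overlapped in both lines, in p53-null cells only where both were at 13.04. The differences between isoginkgetin and DMSO were −0.09 and −0.13 log2 in the p53-null sets, −0.65 in HCT116 replicate 2 and −0.16 in the set labelled HCT116 replicate 1. HCT116 replicate 2 thus held the bulk of the mean difference of −0.26 log2 over the 4 sets (SD 0.26).

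Most probe sets of CCND1 shared that direction. Of its 15 exon probe sets, 12 and 14 were lower with isoginkgetin in p53-null replicates 1 and 2, 13 in HCT116 replicate 2 and 10 in HCT116 replicate 1, with at most 1 higher in any set. Their median differences were −0.05, −0.18, −0.58 and −0.11 log2 in the same order, and in HCT116 replicate 2 the mean was −0.58 without the most changed probe set. The junction probe sets averaged −0.11, −0.12, −0.60 and −0.09 log2, close to the exons in every set. TBC1D1, DNAJC7 and EPB41L4B had the patterns most like CCND1, with Pearson r of 0.985, 0.981 and 0.9797 over the 12 arrays, and each had its largest decrease in HCT116 replicate 2 (−0.32, −0.30 and −0.42 log2).

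**Figure D2:**
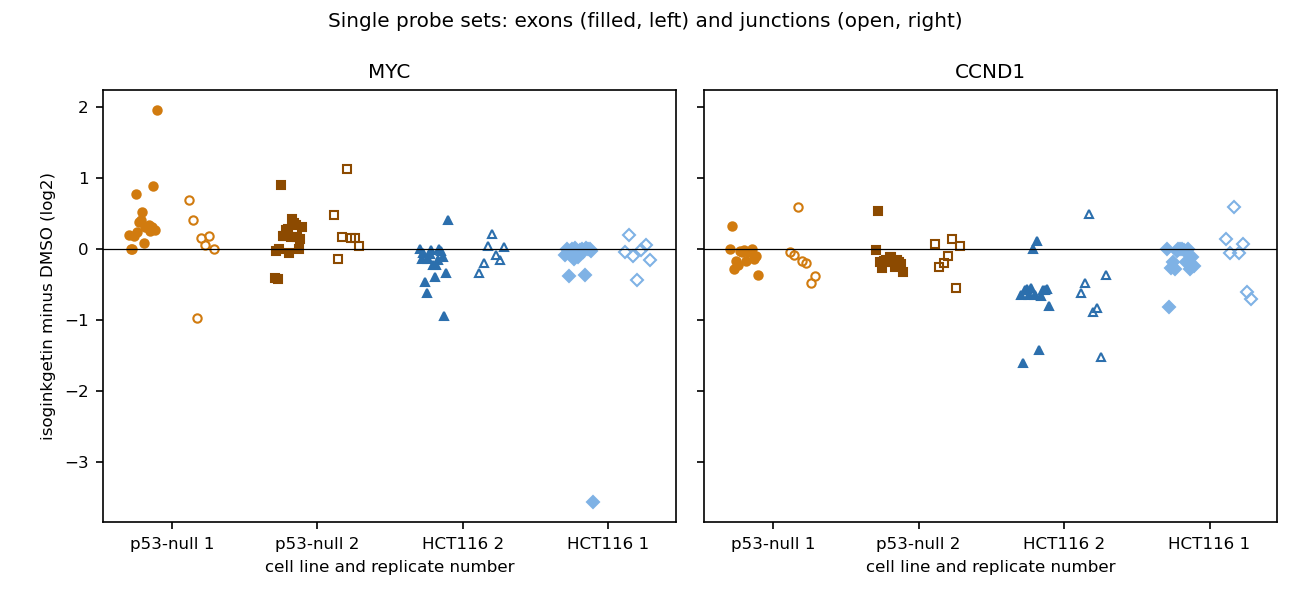
Isoginkgetin minus DMSO (log2, vertical axis) for every exon probe set (filled, left) and junction probe set (open, right) of MYC and CCND1, by set (horizontal axis); each point is 1 probe set on 1 pair of arrays. Most MYC points lie above 0 in the p53-null sets, 1 lies at −3.58 in HCT116 replicate 1, and the CCND1 points of HCT116 replicate 2 centre on −0.58.

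CCND2 differed far more between sets than between treatments. In p53-null cells it lay at 3.70 and 3.86 log2 with isoginkgetin, at 3.66 and 3.80 in DMSO, and at 3.57 and 3.72 untreated. HCT116 replicate 2 lay with them, at 3.84, 3.65 and 3.67 log2 with isoginkgetin, in DMSO and untreated. The arrays labelled HCT116 replicate 1 lay at 14.64 log2 with isoginkgetin, 14.79 in DMSO and 14.83 untreated. The mean of that set was 11.03 log2 above the mean of the other 3, the fifth largest difference by size among 18636 genes, and it stayed at 10.86 log2 after quantile scaling of the arrays. This contrast of 1 set against 3 is a description with no test. Of the 10 exon probe sets of CCND2, 9 were higher by at least 1 log2 in the set labelled HCT116 replicate 1, by up to 15.17. Its 5 junction probe sets were all higher there by at least 1 log2, by up to 15.69, and 1 of them (JUC12000352) was at 17.5 log2 in that set and already at 16.2 to 16.5 in the others.

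CCND3, the third D-type cyclin, had a lower exon mean with isoginkgetin in 3 sets. Its differences were −0.17 and −0.11 log2 in the p53-null sets, −0.19 in HCT116 replicate 2, and 0.06 in the set labelled HCT116 replicate 1. The treated array was the lowest of each of those 3 sets (5.60, 5.90 and 5.99 log2, against 5.77, 6.01 and 6.18 in DMSO). The medians over its 33 exon probe sets were −0.03, −0.01, 0.00 and 0.00 log2, below the means in size, and in HCT116 replicate 2 the mean was −0.10 without the most changed one. Its junction probe sets averaged −0.12 and −0.03 log2 in the p53-null sets. They averaged 0.07 in HCT116 replicate 2, opposite in sign to the exons, and 0.22 in the set labelled HCT116 replicate 1. CCND3 was 1.16 log2 higher in the set labelled HCT116 replicate 1 than in the other 3, and 0.46 higher after quantile scaling.

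CDK4 and CDK6 are the interchangeable kinases that D-type cyclins activate, and in CDK6 1 set stood far from the others. CDK4 lay at 11.29 and 11.81 log2 in p53-null cells with isoginkgetin, at 11.25 and 11.76 in DMSO, and at 11.26 and 11.85 untreated. On the HCT116 arrays CDK4 lay at 11.99 and 11.46 log2 with isoginkgetin, at 11.91 and 11.68 in DMSO, and at 11.87 and 11.65 untreated. All 12 arrays thus fell between 11.25 and 11.99, with the set labelled HCT116 replicate 1 highest and p53-null replicate 1 lowest. The response was 0.05 log2 in both p53-null sets and 0.09 in the set labelled HCT116 replicate 1, against −0.23 in HCT116 replicate 2. In HCT116 replicate 2 the median over the 15 exon probe sets was −0.03, and the mean was −0.13 without the most changed one. The most changed, PSR12022092 and PSR12022090, were at −1.56 and −1.35 log2, with levels of 5.23 and 6.79 log2 in that set. The junction probe sets of CDK4 averaged 0.24 and 0.12 log2 in the p53-null sets, 0.13 in HCT116 replicate 2 and 0.09 in the set labelled HCT116 replicate 1, above 0 in each set and opposite in sign to the exons in HCT116 replicate 2.

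CDK6 lay at 7.77 and 8.08 log2 in p53-null cells with isoginkgetin, at 7.81 and 8.15 in DMSO, and at 7.96 and 8.16 untreated. On the HCT116 arrays CDK6 lay at 3.71 and 8.25 log2 with isoginkgetin, at 3.65 and 8.56 in DMSO, and at 3.74 and 8.53 untreated. The set labelled HCT116 replicate 1 was 4.44 log2 below the mean of the others, or 5.05 below after quantile scaling, and 0 of its 27 exon and junction probe sets reached 8 log2 there. The differences between isoginkgetin and DMSO were −0.04 and −0.07 log2 in the p53-null sets and −0.31 in HCT116 replicate 2, where 15 of 18 exon probe sets were lower and the median was −0.34. Its junction probe sets averaged −0.43 log2 there, but 0.31 and 0.16 in the p53-null sets, opposite in sign to the exons.

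The promoter windows of these 2 kinases are shown because CDK4 is known as a direct target of MYC and CDK6 differed from it in level between the sets. Each line gives the 250 bases before the start of the gene from RefSeq (GRCh38.p14), 5′ to 3′ on the minus strand, with E-boxes (CACGTG) and GC boxes (GGGCGG on either strand) in capitals. CDK4 is at chr12:57752311-57752560 and CDK6 at chr7:92836574-92836823.
CDK4: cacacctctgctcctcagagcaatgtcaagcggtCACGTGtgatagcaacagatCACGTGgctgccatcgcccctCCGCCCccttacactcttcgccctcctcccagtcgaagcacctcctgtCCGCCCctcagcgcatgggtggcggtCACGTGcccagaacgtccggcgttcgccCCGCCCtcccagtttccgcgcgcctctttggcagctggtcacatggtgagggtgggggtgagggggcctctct
CDK6: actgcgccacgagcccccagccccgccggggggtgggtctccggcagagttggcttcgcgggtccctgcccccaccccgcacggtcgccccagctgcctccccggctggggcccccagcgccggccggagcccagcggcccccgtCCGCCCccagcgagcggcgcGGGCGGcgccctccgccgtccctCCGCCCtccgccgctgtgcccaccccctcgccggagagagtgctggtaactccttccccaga
The CDK4 window held 3 E-boxes and 3 GC boxes that did not overlap, and the CDK6 window held 0 E-boxes and 3 GC boxes. An E-box occurred in 6.345% and a GC box in 42.639% of the 35116 windows of this length in the table. The windows had GC contents of 65.6% and 80.0%, against a median of 58.0% over all windows. The sites E2F (TTTNNCGC), CRE (TGACGTCA), TCF (CTTTGAT) and AP-1 (TGANTCA), also searched on both strands, were absent from both windows. A match of letters is a description, and binding was not measured. Entries for 7 of the 10 genes were found. MYC, CCND1 and CCND2 had no entry, and the windows of RB1 and CCND3 lay inside their genes and were not used. The windows of CDKN1B, CDKN2A and CDKN2B held no E-box, and that of CDKN2B overlapped its gene by a few bases.

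CDKN1B, which encodes the inhibitor p27, had differences between isoginkgetin and DMSO of both signs. They were 0.26 and −0.01 log2 in the p53-null sets, −0.16 in HCT116 replicate 2, and 0.29 in the set labelled HCT116 replicate 1. The arrays of p53-null cells lay at 7.97 and 8.38 log2 with isoginkgetin, against 7.71 and 8.39 in DMSO. Those of HCT116 lay at 9.25 and 7.65 log2 with isoginkgetin, against 8.96 and 7.81 in DMSO. The replicates of p53-null cells in DMSO were 0.68 log2 apart, more than any of these differences. The set labelled HCT116 replicate 1 was 1.06 log2 above the mean of the others, and 0.43 above it after quantile scaling.

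CDKN2A encodes the INK4 inhibitor p16 and, in another reading frame, the MDM2 antagonist ARF. Its exon mean ran from 4.72 to 4.88 log2 on the arrays labelled HCT116 replicate 1 and from 5.99 to 6.23 on the 9 arrays of the other sets. Isoginkgetin minus DMSO was 0.09 and −0.03 log2 in the p53-null sets, 0.17 in HCT116 replicate 2, and −0.13 in the set labelled HCT116 replicate 1, where the mean without 1 probe set at −4.18 was 0.04. Of the 24 exon probe sets, 5 were at 8 log2 or more in each of the other sets, and only 1 of them (PSR09012771, at 15.2 log2 there and 14.8 to 15.3 in the others) was so in the set labelled HCT116 replicate 1. The remaining 4 were between 4.37 and 6.68 log2 there, against 9.51 to 13.95 in the other sets. The junctions JUC09006946 and JUC09006952 differed likewise, at 6.00 and 2.94 log2 there, against at least 13.04 and 8.35 in the other sets. CDKN2B and its antisense gene CDKN2B-AS1 lie beside CDKN2A, whose transcripts share exons, so values of single probe sets here are uncertain as to the transcript.

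CDKN2B, the INK4 inhibitor p15, lay between 4.25 and 4.33 log2 on the arrays labelled HCT116 replicate 1 and between 5.05 and 5.32 on the 9 arrays of the other sets. Its differences between isoginkgetin and DMSO ran from −0.08 to 0.06 log2 over the 4 sets, the smallest range among the 10 genes. They were differences at a low level, as 0 of its 9 exon and 0 of its 3 junction probe sets reached 8 log2 in any set. MTAP, a neighbour of these inhibitors that acts in methionine salvage, was at 9.5 log2 in the set labelled HCT116 replicate 1 and at 12.1 to 12.4 in the others. CDKN2B-AS1 was at 4.4 log2 in that set and at 4.2 to 4.4 in the others.

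**Figure D3:**
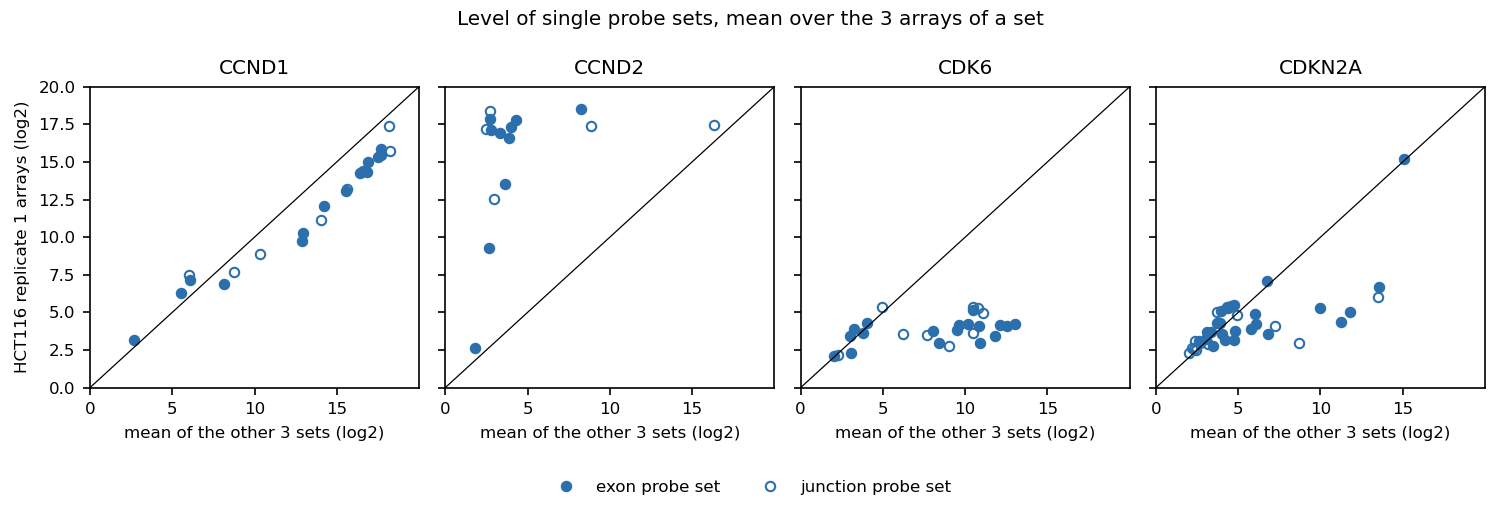
Level of every exon (filled) and junction (open) probe set of CCND1, CCND2, CDK6 and CDKN2A in the set labelled HCT116 replicate 1 (log2, vertical axis) against the mean of the other 3 sets (log2, horizontal axis), with the line of equal levels. CCND2 lies above the line by up to 15.69, CDK6 below it by up to 8.80, and CDKN2A holds 1 probe set near 15 on the line and a group below it.

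RB1, the brake that D-cyclin kinases release, lay at a similar level in all sets, while its differences between isoginkgetin and DMSO had both signs. Over the 12 arrays it ran from 10.96 to 11.45 log2. Isoginkgetin minus DMSO was −0.05 and −0.19 log2 in the p53-null sets, 0.19 in HCT116 replicate 2, and −0.14 in the set labelled HCT116 replicate 1. Of its 37 exon probe sets, 20 and 28 were lower with isoginkgetin in p53-null replicates 1 and 2 and 24 in the set labelled HCT116 replicate 1. In HCT116 replicate 2, 24 were higher and 7 lower, the one set with the opposite majority.

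**Figure D4:**
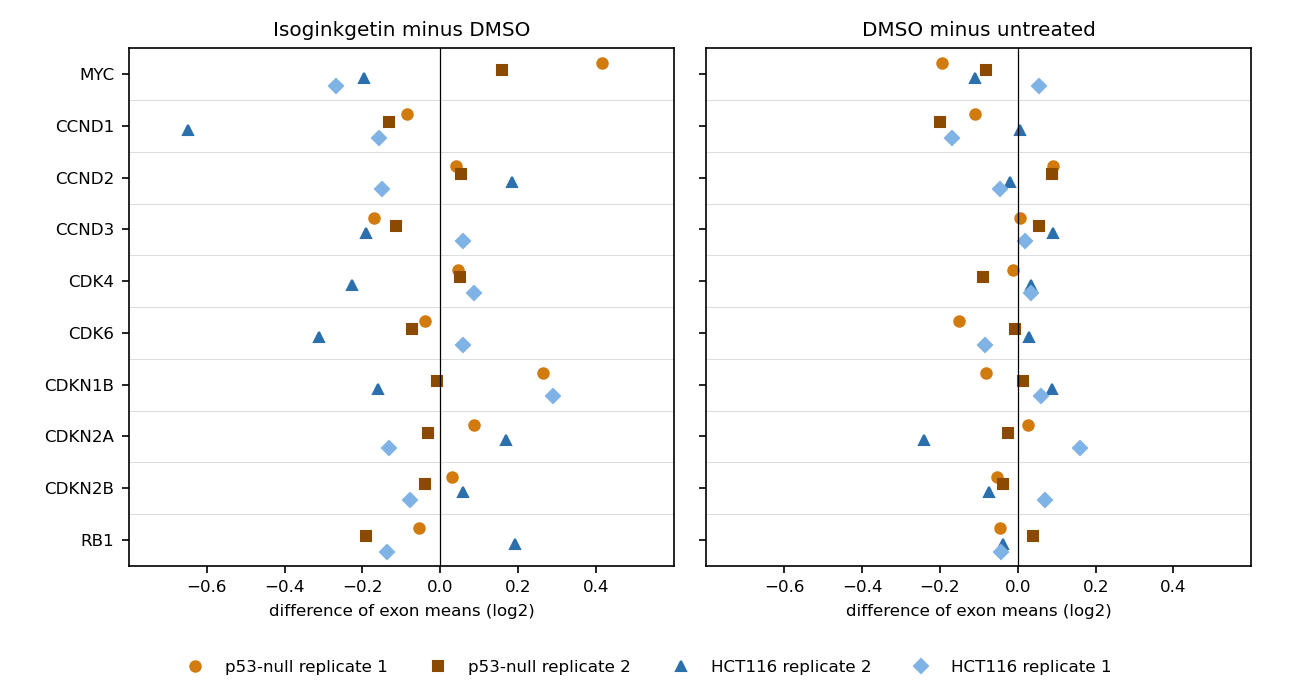
Difference of exon means (log2, horizontal axis) for the 10 genes, isoginkgetin minus DMSO (left) and DMSO minus untreated (right); each symbol is 1 set. CCND1 is below 0 in all 4 sets on the left, with HCT116 replicate 2 at −0.65, and MYC is above 0 in the p53-null sets and below 0 in the HCT116 sets.

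Tested over the sets, no member passed an adjusted p of 0.05 in any main comparison. Within 4 sets, with the set as a block in limma and Benjamini-Hochberg adjustment over all genes, 0 of 10 members were called, against 3.02% of all genes (203 higher and 360 lower, or 286 higher and 273 lower after quantile scaling). CCND1 came closest, at −0.26 log2 (95% interval −0.44 to −0.07, limma adjusted p = 0.126, lower in 4 of 4 sets). CCND3 followed at −0.10 log2 (interval −0.20 to −0.01, limma adjusted p = 0.208, lower in 3 of 4 sets). MYC was at 0.03 log2 (interval −0.20 to 0.25, limma adjusted p = 0.889). The other 7 lay between −0.09 and 0.10 log2, with intervals inside −0.21 to 0.26. Without the arrays labelled HCT116 replicate 1, 0 members were called against 2.45% of all genes. There CCND3 was at −0.16 log2 (interval −0.24 to −0.08, limma adjusted p = 0.062) and CCND1 at −0.29 (interval −0.53 to −0.04, limma adjusted p = 0.222). Against untreated cells in place of DMSO, CCND1 was the only member called within 4 sets, at −0.37 log2 (limma adjusted p = 0.043), where 3.94% of all genes were called. That call was lost without the arrays labelled HCT116 replicate 1, where CCND1 was at −0.39 log2 (limma adjusted p = 0.118).

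By line, the unpaired comparison of groups called 0 members and 0% of all genes in p53-null cells, and likewise 0 members and 0% in HCT116. At an unadjusted p under 0.05 it held 13 and 17 genes in these lines. With the replicate number as a block, which the arrays of a line share, 0 members were called in p53-null cells, against 0.397% of all genes, and MYC was at 0.29 log2 (interval 0.13 to 0.44, limma adjusted p = 0.1395). In HCT116 the block called 0 members against 3.72% of all genes (126 higher and 567 lower, or 123 higher and 227 lower after quantile scaling). CCND1 was at −0.40 log2 there (limma adjusted p = 0.077) and MYC at −0.23 (limma adjusted p = 0.099). Without the arrays labelled HCT116 replicate 1, the blocked comparison called 0 members against 2.38% in p53-null cells. In HCT116 it then rested on 1 set, whose spread was taken from the p53-null sets, and it called 3 members against 13.8% of all genes. They were CCND1 (−0.65 log2), CDK6 (−0.31) and CDK4 (−0.23), all lower with isoginkgetin in their exon means, while the CDK4 junctions were not. The median over the CDK4 exon probe sets was −0.03 log2 in HCT116 replicate 2.

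The response in p53-null cells minus the response in HCT116 was tested as an interaction of line and treatment. The unpaired test called 0 members and 0% of all genes, with 0 genes at an unadjusted p under 0.05, and the test with the replicate block again 0 members and 0%. MYC had the largest interaction, 0.52 log2, with an interval of −1.46 to 2.50 unpaired (limma adjusted p = 1) and of 0.30 to 0.74 with the block (limma adjusted p = 0.157). Without the arrays labelled HCT116 replicate 1, the blocked interaction called 1 member against 5.94% of all genes. This was CCND1, at 0.54 log2 (interval 0.35 to 0.73, limma adjusted p = 0.020), with p53-null differences of −0.09 and −0.13 against −0.65 in the lone HCT116 set. MYC was at 0.48 log2 there (limma adjusted p = 0.062).

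DMSO alone gave small differences. Within 4 sets, DMSO minus untreated ran from −0.12 log2 for CCND1 to 0.04 for CCND3, and 0 members were called, against 0% of all genes by limma (429 genes at an unadjusted p under 0.05). MYC was at −0.08 log2 (interval −0.31 to 0.14). Without the arrays labelled HCT116 replicate 1, limma again called 0 genes, with MYC at −0.13 log2 and CCND1 at −0.10.

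The basal comparison, p53-null minus HCT116 in DMSO, turned its sign for 5 members with the arrays labelled HCT116 replicate 1. Unpaired, 0 members were called against 0.0376% of all genes, and with the replicate block 0 against 0.134%. MYC averaged 11.29 ± 0.35 log2 in p53-null cells and 11.64 ± 0.87 in HCT116 (SD, n = 2 each), a difference of −0.35. That difference was 0.00 after quantile scaling and 0.07 after centring of the arrays. CCND1 averaged 13.11 ± 0.10 log2 in p53-null cells and 12.52 ± 1.38 in HCT116, a difference of 0.58. Without the arrays labelled HCT116 replicate 1, 0 members were called against 0.773% of all genes. HCT116 in DMSO was then 1 array, and the spread of that fit came from the p53-null sets alone. As effect sizes only, MYC was at −0.96 log2, CCND1 at −0.40 and CDK6 at −0.58. The 5 members whose sign turned when these 3 arrays were left out were CCND1, CCND2, CDK6, CDKN1B and CDKN2B.

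Set against the other 3 sets, the arrays labelled HCT116 replicate 1 differed by at least 1 log2 in 6 of the 10 members, against 27.97% of all genes, or 20.3% after the median difference of all genes of 0.60 log2 was taken off. CCND2, CCND3 and CDKN1B were higher there by that amount, and CCND1 (−1.63 log2), CDK6 and CDKN2A (−1.34) lower. With the median taken off the count was again 6, but CCND3 (0.55 log2) and CDKN1B (0.46) no longer reached 1, and MYC (−1.38) and CDKN2B (−1.53) did, so that 1 member was higher and 5 were lower. MYC was 0.77 log2 lower, or 1.24 lower after quantile scaling, and CDK4 was 0.37 higher, or 0.04 after scaling. These values describe 1 set and carry no test, and fewer cells of a type cannot be told apart from less RNA per cell in them.

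Since isoginkgetin is known as a splicing inhibitor, junction probe sets were read relative to the exon mean of their gene. Of the 109 junctions of the members, 0 were called within 4 sets, against 0% of all junctions (23414 junctions at an unadjusted limma p under 0.05), and the smallest limma adjusted p was 0.487. Within 3 sets it was again 0, against 0.00035% of all junctions, with a smallest adjusted p of 0.717. The median relative difference of the members' junctions was 0.05 log2 within 4 sets and 0.06 within 3, against 0.00 and 0.01 over all junctions. Of the 109, 74 and 72 were above 0, and no such share was computed over all junctions. The junctions of a gene are read against the same exon mean, so they do not vary independently. Whether these counts are particular to the members was not tested. The exon probe sets relative to their gene gave 0 of 198 called in both, against 0% and 0.000262% of all exon probe sets (32468 exon probe sets at an unadjusted limma p under 0.05 within 4 sets).

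For each member the lowest and the highest junction within 3 sets show the spread behind these counts. The lowest was −0.56 log2 (JUC11004851 of CCND1, at −0.39, −0.42 and −0.87 in p53-null replicates 1 and 2 and HCT116 replicate 2) and −0.38 for MYC (JUC08005156, at −1.39, 0.01 and 0.23). The lowest of CDK4 was 0.01, while within 4 sets 2 of its 10 junctions were below 0. The highest was 0.88 log2 for CDK6 (JUC07012122, at 1.65, 0.84 and 0.16) and 0.85 for RB1 (JUC13001371, at 2.06, −0.38 and 0.86). In the set labelled HCT116 replicate 1 that RB1 junction was at −3.31, and within 4 sets its value turned to −0.19. Over all 10 members the lowest junctions lay between −0.56 and 0.01 and the highest between 0.26 and 0.88, with limma adjusted p of 0.72 to 0.99.

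The surrounding genes of the pathway were read from 8 lists that held 128 genes beside the members, of which 116 were measured. Within 4 sets 3 of them were called (2.59%, against 3.02% of all genes), and within 3 sets 5 (4.31%, against 2.45%). The lists were chosen with earlier results of these data known, so these shares are a description and not independent evidence. The listed genes had a median difference of −0.05 log2 in both, with 70.7% and 69.0% of them below 0. Over all genes these values were 0.01 log2 and 44.5%. All genes include those of low level, and no share was computed for genes of a level like that of the lists. Among genes at 5 log2 or more, 251 were called higher and 509 lower within 4 sets. Whether the share below 0 is particular to the lists was not tested. The 10 members had a median of −0.01 log2 within 4 sets, with 6 below 0.

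Genes upstream of MYC and CCND1 held 3 of the 5 called genes. Within 3 sets 3 of 22 measured genes were called, 1 higher and 2 lower. AXIN2, a feedback target of WNT and beta-catenin signalling, fell by 0.61 log2 (SE 0.04, limma adjusted p = 0.001). It lay at 6.03, 6.30 and 4.99 log2 with isoginkgetin in p53-null replicates 1 and 2 and HCT116 replicate 2, against 6.57, 6.99 and 5.59 in DMSO. ETS1, a transcription factor, fell by 0.54 log2 (SE 0.07, limma adjusted p = 0.017), with differences of −0.34, −0.56 and −0.72 in the same sets. KLF4, a factor of the gut epithelium that restrains proliferation, rose by 0.38 log2 (SE 0.04, limma adjusted p = 0.008), with differences of 0.47, 0.39 and 0.29. In the set labelled HCT116 replicate 1, AXIN2, ETS1 and KLF4 had differences of 0.11, 0.06 and 0.05 log2. In DMSO they lay at 5.51, 4.17 and 4.93 log2 there, below the median of all genes on that array (5.95 log2). In HCT116 replicate 2 the DMSO levels of AXIN2, ETS1 and KLF4 were 5.59, 6.28 and 5.44 log2. The median of all genes on that array was 5.32 log2. The part of the level in these differences was not tested. Within 4 sets 1 of the 22 was called, KLF4, at 0.30 log2 (limma adjusted p = 0.033).

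Among 15 genes of the turnover of D-type cyclins and p27, 2 were called in both tests. GSK3B, a kinase that marks D-type cyclins and MYC for degradation, fell by 0.20 log2 within 4 sets (SE 0.04, limma adjusted p = 0.034) and by 0.25 within 3 (limma adjusted p = 0.018). It lay at 10.09, 10.32, 10.09 and 10.82 log2 with isoginkgetin in p53-null replicates 1 and 2, HCT116 replicate 2 and HCT116 replicate 1, against 10.39, 10.54, 10.31 and 10.88 in DMSO. FBXO4, a ubiquitin ligase subunit that binds cyclin D1, rose by 0.18 log2 within 4 sets (SE 0.03, limma adjusted p = 0.016) and by 0.17 within 3 (limma adjusted p = 0.042). Its differences were 0.14, 0.20, 0.16 and 0.23 log2 in the same order of sets. In DMSO FBXO4 lay at 5.12, 5.23, 5.12 and 5.74 log2 in that order. The median of all genes on those arrays was 5.11, 5.31, 5.32 and 5.95 log2.

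The other 6 lists held no called gene within 4 or within 3 sets. Of 25 MYC target genes measured, 15 were below 0 in both tests with a median of −0.03 log2, and the smallest adjusted p was that of PHB1, a mitochondrial scaffold protein (0.11 log2, limma adjusted p = 0.079 within 4 sets and 0.172 within 3). Of 16 genes of the MYC network, 0 were called, with MXD1, a MAX partner that opposes MYC, at 0.20 log2 (limma adjusted p = 0.061, and 0.105 within 3 sets) and MLXIP at −0.31 (limma adjusted p = 0.086, and 0.128 within 3 sets) within 4 sets. Of 17 pocket protein, E2F and DREAM genes, 0 were called, 13 and 12 lay below 0 within 4 and 3 sets, and the median was −0.10 log2 in both. E2F8, a repressor of the E2F family, was at −0.15 log2 within 4 sets (limma adjusted p = 0.052, and 0.124 within 3). MYBL2, an activator of late cell cycle genes, was at −0.28 within 3 sets (limma adjusted p = 0.066, and 0.123 within 4). Of 11 other G1 and G1/S cyclins and kinases 0 were called, and CDK2, the partner of cyclin E, was at −0.28 log2 within 3 sets (limma adjusted p = 0.080, and 0.195 within 4). Of 5 other kinase inhibitors 0 were called, with CDKN2C at −0.21 log2 within 3 sets (limma adjusted p = 0.065, and 0.582 within 4), and of 5 neighbours of CDKN2A and MYC 0 were called.

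**Figure D5:**
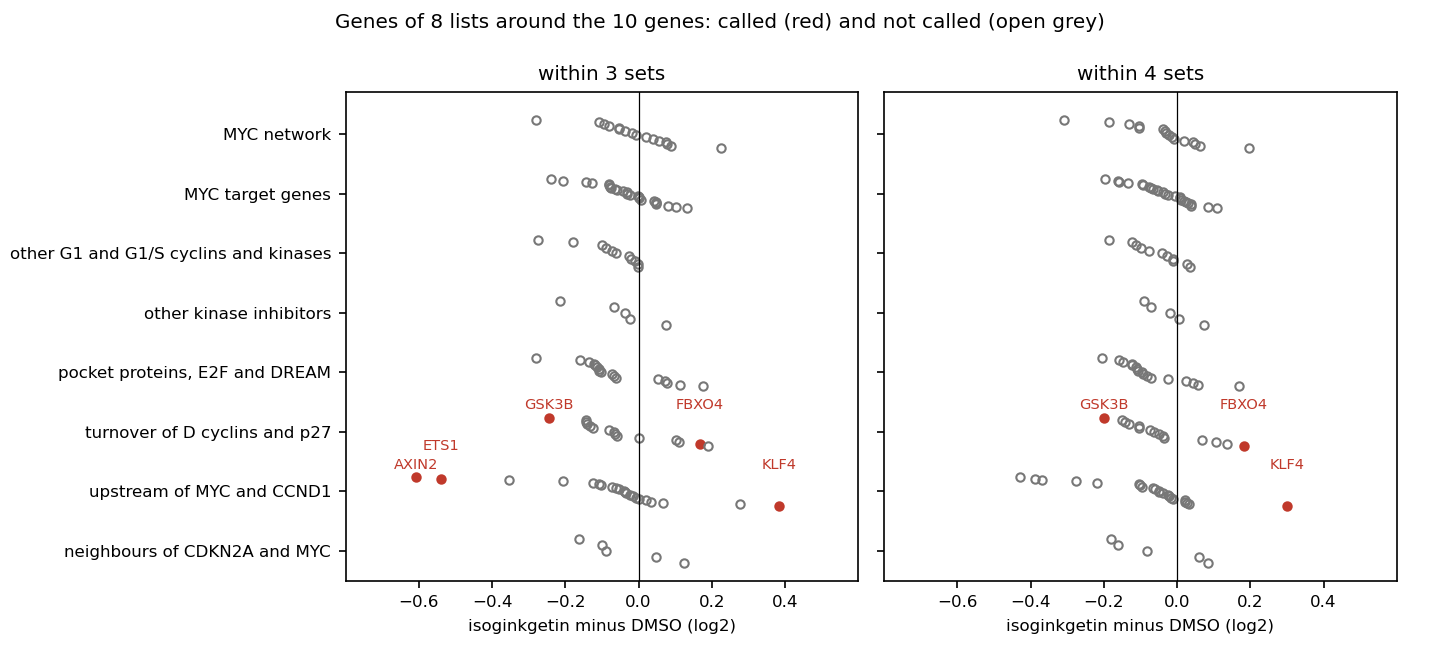
Isoginkgetin minus DMSO (log2, horizontal axis) for each measured gene of the 8 lists (rows), within 3 sets (left, without the arrays labelled HCT116 replicate 1) and within 4 sets (right); red points are genes with a limma adjusted p under 0.05, grey circles the others. The called genes are AXIN2, ETS1, KLF4, GSK3B and FBXO4 on the left and KLF4, GSK3B and FBXO4 on the right.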

How the data were processed

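The authors deposited log2 values for every array, as a probe-set table and a gene-level table, made with Transcriptome Analysis Console 4.0 per the submitters' processing notes. Per the labels' series text the program ran at its default settings, which name no background correction or scaling there. The authors' log2 values ran from 1.25 to 19.93 and were not transformed further. In the gene-level table isoginkgetin and DMSO were exactly equal in 77.9% to 87.1% of rows by set, so it served only as an alternative. Arrays have no read depth, and their number limits the precision.

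Exon means were computed from probe sets with exactly 1 symbol and at least 3 such exon probe sets per gene (median 16). limma 3.58.1 in R 4.3.3 was fitted to all genes, with 6 group means or with the set as a block, Benjamini-Hochberg adjustment and a threshold of 0.05, after tests on simulated data. Junction and exon probe sets were tested relative to the exon mean of their gene. After removal of group means, the correlation was 0.903 to 0.997 for 6 pairs of 1 line and number, against 0.068 to 0.108 for 9 pairs across lines, so equal numbers were taken as pairs within a line. Per the same text each line had 2 independent experiments, and the authors' own test was unpaired, as is the comparison by line here.

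The members and lists were chosen with earlier results of these data known. Named are the members, listed genes called in a within-set test or, where fewer than 2 of a list were, up to 2 with the smallest adjusted p, the 3 genes most like MYC and like CCND1, and the lowest and highest junction of a member. Probe sets singled out for their level or difference were chosen after their values were seen. The check of the targeted gene is not reported here. Alternatives changed the scaling, the summary, the level filter (5 log2), the control group, the test, the table and the arrays used.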

Additional observations from a re-analysis of the deposited data

Results flagged for a closer look

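The MYC response differed in direction between the p53-null sets and the sets labelled HCT116. Both p53-null sets were above 0 (0.42 and 0.16 log2) and both HCT116 sets below 0 (−0.20 and −0.27), and the response in p53-null minus the response in HCT116 was 0.5189 log2. That difference did not pass limma's test (adjusted p = 1 unpaired and 0.157 with the replicate block). The set labelled HCT116 replicate 1 was at −0.07 log2 without 1 probe set. The set labelled HCT116 replicate 1 held 0 of 17 epithelial markers at 8 log2 or more, against 9 in HCT116 replicate 2, the only HCT116 set with any at that level. At gene level the p53-null sets were at 0.30 and 0.02 log2. HCT116 replicate 2 was at −0.10 there, and HCT116 replicate 1 at 0.00.

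The blocked interaction of CCND1 without the arrays labelled HCT116 replicate 1 was 0.53991 log2 (limma adjusted p = 0.0203), with 1 HCT116 set left. With all arrays it was 0.29 log2 (limma adjusted p = 0.438).

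In 2 of the 10 members 1 set lay far from the other 3, by a test of the gap at a level where chance marks about 1 in 20 groups. HCT116 replicate 2 was at −0.648 log2 for CCND1 and at −0.2272 log2 for CDK4, with gaps to the nearest set of over 0.8 of the whole range. The median over the exon probe sets in that set was −0.58 log2 for CCND1 and −0.03 for CDK4.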

How the results depend on the processing

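Of 923 member values under alternatives, 771 kept their value and side of the threshold, and 147 moved by more than the spread between sets. The other 5 passed the threshold that had not. No member was called in a main comparison, so no called value could change sign. Pairing by replicate number (the block) moved the counts of called genes to 74 in p53-null cells and 693 in HCT116, against 0 and 0 unpaired, and to 25 from 7 in the basal comparison. Chosen after seeing the data, the block with quantile scaling gave 59 and 350, and the block without the arrays labelled HCT116 replicate 1 gave 444, 2581 and, for the interaction, 1107. In the basal comparison quantile scaling gave 57, centring 72, a level of at least 5 log2 12, summaries at gene level 4, leaving out the arrays labelled HCT116 replicate 1 144, and leaving out 1 array 1 to 1.

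Within 4 sets (563 called genes) the fit with no replicate block gave 0, the median of exon probe sets 20, summaries at gene level 0, and leaving out 1 set 1 to 456 (82 without HCT116 replicate 2, 1 without p53-null replicate 1 and 25 without p53-null replicate 2). Within 3 sets (456) these gave 0, 43, 3 and 0 to 444 (0 without p53-null replicate 1 and 18 without p53-null replicate 2). The single junction and the single exon probe set called within 3 sets became 0 without the block, without any further set and, for the exon probe set, relative to the exon median. Within 4 sets leaving out 1 set gave 0 to 1 for both. Fewer sets also leave fewer degrees of freedom, and causes of these moves were not tested. Leaving out 1 array moved the unpaired MYC response in HCT116 between −0.88 and 0.42 log2 and that of CCND1 between −1.38 and 0.58. Limits of these data are 2 replicates a group and a set labelled HCT116 with 0 of 17 measured epithelial markers at 8 log2 or more.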
